A study of Mus musculus with 6 samples.

Results

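The axon guidance ligands and receptors of the retina were followed in 5XFAD mice with and without efavirenz (EFV) treatment. Members were chosen by gene symbol (ephrins, Eph receptors, semaphorins of classes 3 to 7, plexins, neuropilins 1 and 2, Slits, Robos, netrins, Unc5 receptors and Dcc), and the rule found 73 of the 19401 genes listed in at least 1 library. Of the 73 symbols, Unc50 (not related to the Unc5 receptors) and Unc5cl (related to their inner part only, and no netrin receptor) were set aside, which left 71 guidance genes. Both groups were hemizygous 5XFAD mice on the B6SJL background, 9 months old, whose mutant human transgenes include APP695 with the K670N, M671L, I716V and V717I changes. Both groups drank water with the vehicle Tween 80, which control mice received without the drug. EFV-treated mice were given EFV, an anti-HIV drug that also activates the cholesterol hydroxylase CYP46A1, at 0.08 mg/kg per the labels (the study's methods give a slightly higher dose), in the drinking water from 3 to 9 months of age. The study asked which retinal RNAs differ after EFV treatment. Each group had 3 libraries, each from a pool of retinas of 5 to 6 mice (per the methods with the retinal pigment epithelium, RPE, and male), and differences between libraries of a group are differences between pools, not single animals. There was no library of wild type mice, and which pools held retinas with vascular lesions is not given in the sources used here.

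Axon guidance molecules are paired systems of secreted or membrane-bound ligands and the receptors that growing axons carry, and most pairs act by repulsion. Ephrins and Eph receptors set up the map of ganglion cell axons in the brain, Slits and netrins steer these axons inside the retina and out through the optic disc, and transmembrane semaphorins with plexins sort neurites into layers of the inner retina. Several of the same genes, among them Efnb2, Ephb4, Sema3e, Plxnd1, Unc5b and Robo4, also act in blood vessels.

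Depth was even, with 24590278, 23455167 and 24337444 rounded counts in control replicates 1 to 3 and 24487218, 24360060 and 24160101 in EFV replicates 1 to 3. Markers of ganglion cells were found in every library, where 7 genes summed to between 416 and 465 FPKM (fragments scaled to transcript length and to library total). However, some libraries stood apart. Control replicate 3 held the most lens RNA. All 8 lens markers were detected in every library, but their sum was 834 FPKM in this pool against 8.95 to 34.7 in the others. Cryba1 (a lens crystallin) was at 398 FPKM against 3.91 to 18.0. Control replicate 2 had the lowest sum of 7 RPE markers, 22.6 FPKM against 42.8 to 53.9 elsewhere, and the lowest level of the most abundant of them, Ttr (14.5 FPKM against 27.8 to 34.4). EFV replicate 3 had less Y-linked RNA than the other pools, although the methods describe all pools as male. Ddx3y was at 5.08 FPKM against 10.4 to 14.4, and Eif2s3y at 15.2 against 30.4 to 40.8. The upper ends were those of EFV replicate 1, against at most 11.2 and 33.3 FPKM in the control pools and EFV replicate 2. For several genes, values without 1 of these pools are also given below.

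Nearly all guidance genes were detected. At least 10 counts in at least 3 libraries were found for 69 of the 71, and these were tested. The exceptions were Plxnb3, a plexin known from oligodendrocytes, with 0, 1 and 1 counts in control and 2, 5 and 4 in EFV-treated mice, and Ntn5, a short netrin-like gene, with 4, 1 and 5 against 3, 9 and 12. Outside the guidance genes, Unc50 was tested and Unc5cl had 1 count in 1 library. The mean level was at least 1 FPKM for 56 of the 71 genes and at least 10 FPKM for 14. The summed level was 497, 478 and 511 FPKM in control and 503, 511 and 503 FPKM in EFV-treated mice, so the groups overlapped. Sema3f, Ntng2 and Epha5 together made up 33.2% of this sum. In the order of mean levels, Sema3f (57.2 to 65.7 FPKM) and Ntng2 (48.3 to 55.3) did not overlap, whereas the range of Epha5 (37.5 to 65.7) spanned both, and Sema7a followed at 20.3 to 24.7 FPKM.

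**Figure D1:**
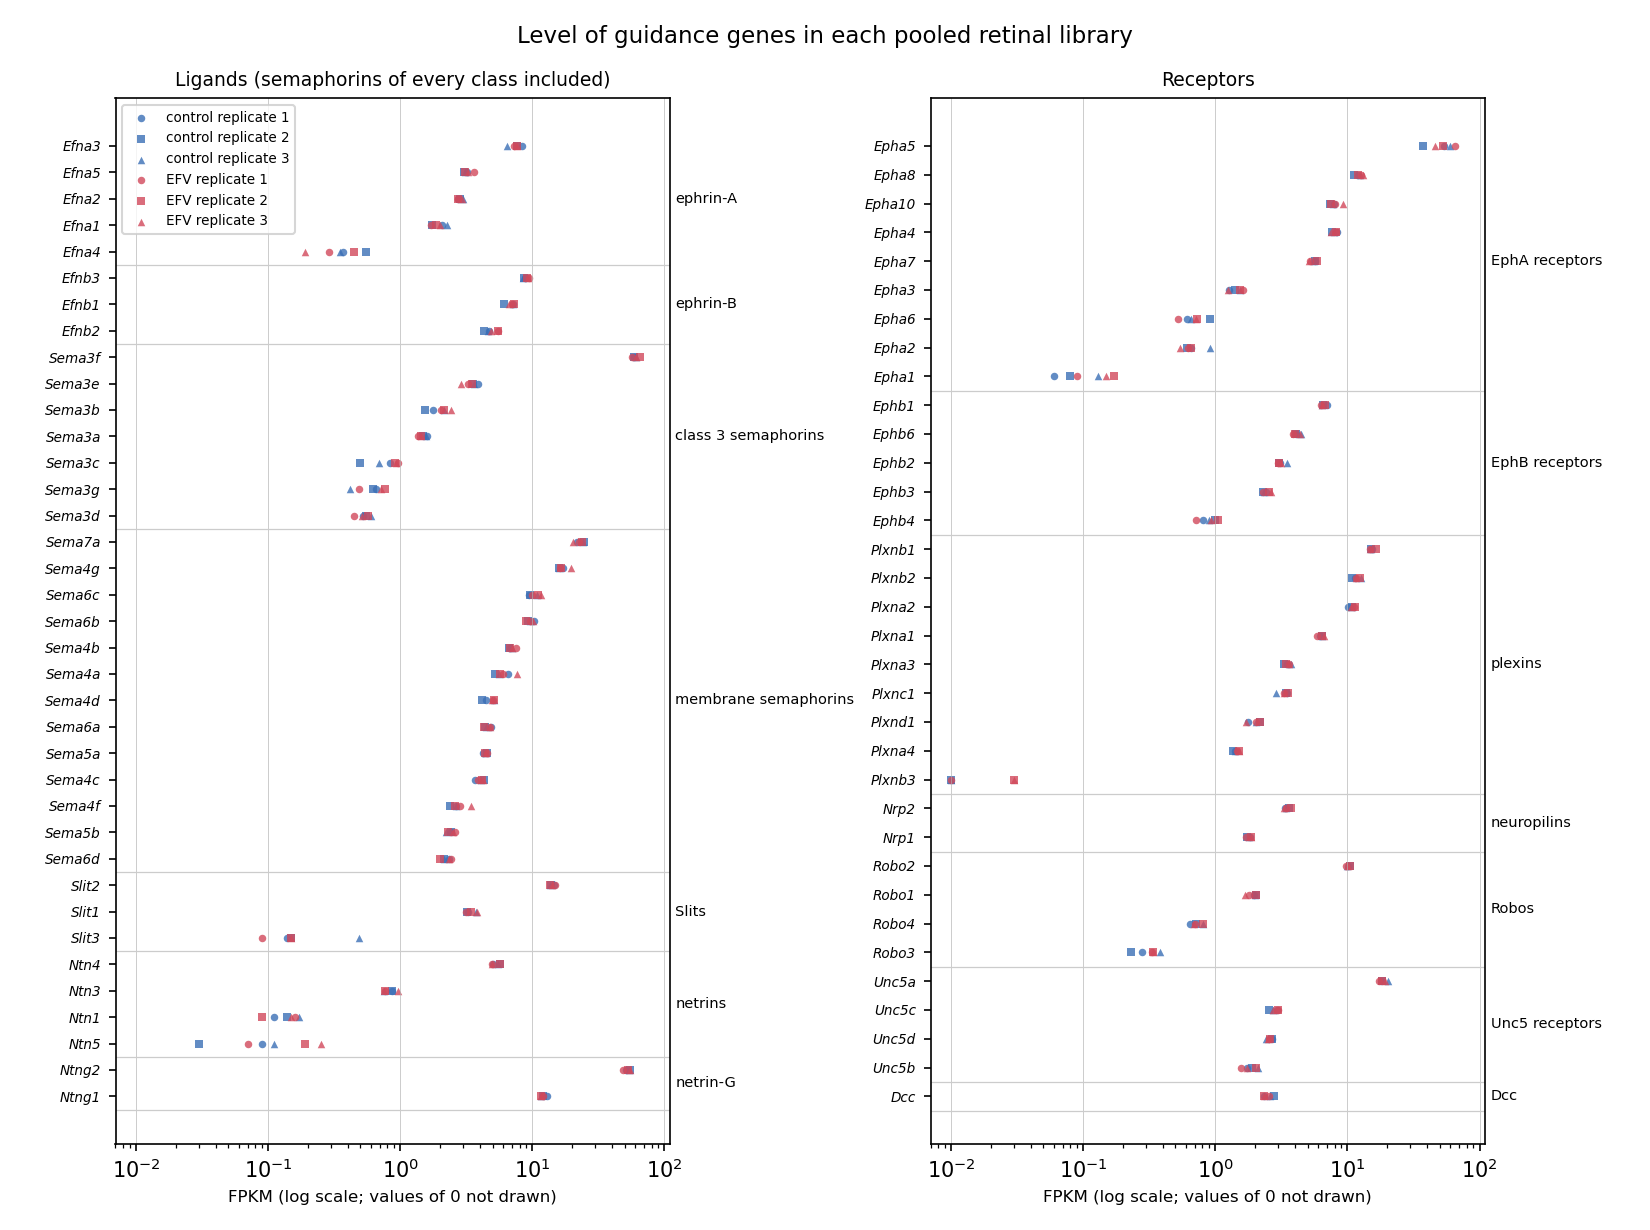
FPKM (log axis) of each of the 71 guidance genes in the 6 libraries, by family, with control in blue and EFV in red and a marker shape for each replicate. The points of most genes lie close together and mixed by group, while some genes under 1 FPKM, such as Slit3, Epha1, Efna4 and the untested Ntn5 and Plxnb3, are spread more widely.

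No guidance gene differed between EFV-treated and control mice after adjustment for multiple tests. With the quasi-likelihood test of edgeR and Benjamini-Hochberg (BH) adjustment over 15537 genes, 0 of 69 guidance genes were called at an adjusted p of 0.05, as were 0% of all genes (lowest adjusted p 0.323). DESeq2 and limma also called 0 guidance genes at an adjusted p of 0.05, and DESeq2 called 11 genes in all, or 0.0708%. A Poisson model, which takes in counting error but not the spread between pools, called 8 guidance genes, when it called 13.1% of all genes. At an unadjusted p of 0.05 in edgeR, 3 of 69 guidance genes were called, against 472 or 3.04% of all genes tested. Efnb2 and Sema3c were higher in EFV-treated mice (1.49% of all genes were called in this direction) and Sema3e was lower (1.55%). DESeq2 gave 1 guidance gene at this limit, Sema3e, and limma gave 2, Efnb2 and Sema3c. The count was 0 without EFV replicate 1 and 1, Efnb2, without EFV replicate 3. Without control replicate 3 the 3 genes called were Efnb2, Sema3b and Sema4d, so Sema3c and Sema3e were lost and 2 others took their place. The share of guidance genes called was thus near that of all genes.

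The differences were small in size. The median log2 fold change (EFV over control) was 0.00 in the 69 guidance genes and 0.00 in all genes tested, and the median size of the change without its sign was 0.06 in both. Of the guidance genes, 33 had a log2 fold change above 0 and 36 below it (50.5% of all genes were above 0). With total-count scaling these were 40 and 29, and 58.4% of all genes were above 0. The 95% interval of the fold change lay inside 1.5-fold in either direction for 60 of the 69 genes (87.0%, against 79.7% of all genes tested). The intervals of 3 genes with low counts, Epha1, Efna4 and Slit3, reached beyond 2-fold. For Epha1, with 5 to 13 counts per library, the interval (-0.419 to 1.565 on the log2 scale) does not exclude a 2-fold increase.

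**Figure D2:**
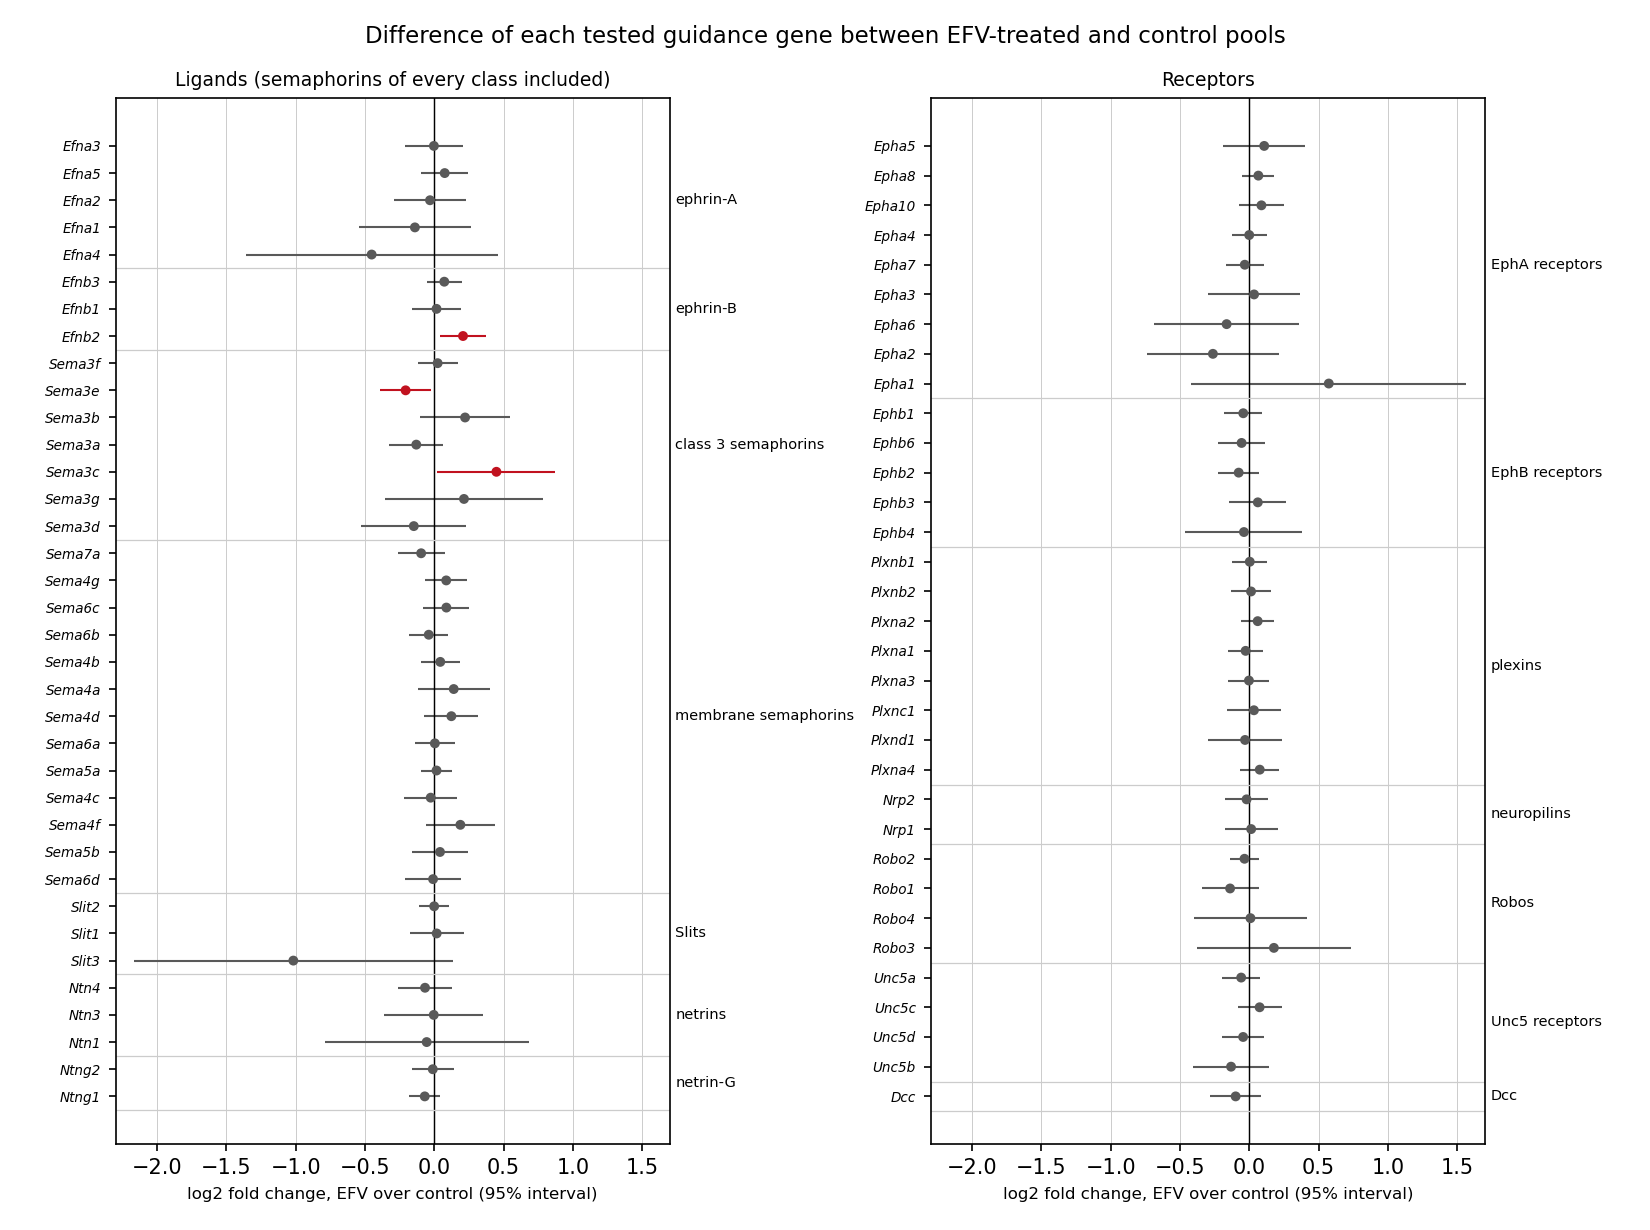
Log2 fold change (EFV over control) of the 69 guidance genes tested, by family and in the order of mean FPKM, with the 95% interval of the edgeR fit as a line. Red marks an unadjusted p of 0.05 or less, which Efnb2, Sema3c and Sema3e had; every other interval includes 0.

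Among the ligands, the ephrin-B family held the gene with the lowest unadjusted p. Ephrins of class B are transmembrane proteins that signal both through EphB receptors and backward into their own cell. Efnb2 (ephrin-B2, Entrez 13642, chr8:8617235-8661242 in GRCm38), the mark of arterial endothelium that also serves as a repellent for ganglion cell axons at the optic chiasm, was at 4.66, 4.31 and 4.58 FPKM in control and at 5.49, 5.46 and 4.86 FPKM in EFV-treated mice. All 3 EFV pools lay above the control pools, with replicate 3 the nearest to them. The log2 fold change was 0.21 ± 0.07 (SE, n = 3 and 3, 95% interval 0.04 to 0.37), and the adjusted p was 0.999 (edgeR with BH; unadjusted p = 0.0199). Without EFV replicate 3, the pool with less Y-linked RNA, the log2 fold change was 0.27 (unadjusted p = 0.00401 in edgeR). The edgeR call was lost without control replicate 2, the pool with the lowest RPE markers (log2 fold change 0.18, unadjusted p = 0.0637 in edgeR). It was also lost without EFV replicate 1 or 2 (log2 fold change 0.18 and 0.17, unadjusted p = 0.0642 and 0.0709 in edgeR). In DESeq2 the log2 fold change was 0.21, with an unadjusted p of 0.0506. Whether a change in a bulk retinal RNA reflects the number of cells of a type or the RNA per cell cannot be told apart here. Endothelial markers (5 of 5 detected, Kdr the most abundant) summed to 45.6, 41.6 and 39.7 FPKM in control and 42.1, 43.8 and 38.1 FPKM in EFV-treated mice, so they overlapped between the groups.

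Efnb3, the most abundant ephrin-B, was at 8.76, 8.71 and 8.45 FPKM in control and 9.49, 9.05 and 9.19 FPKM in EFV-treated mice. These groups did not overlap either, but the log2 fold change was 0.07 ± 0.06 (SE) and the unadjusted p 0.236 in edgeR. Efnb1, the X-linked member, overlapped, with a log2 fold change of 0.02. All 3 class B ephrins had values above 0 with all libraries, but Efnb1 was at -0.05 without control replicate 2 and at -0.03 without EFV replicate 2. Their summed FPKM was 20.6, 19.1 and 20.1 in control and 22, 21.8 and 20.7 in EFV-treated mice.

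Ephrin-A ligands, which are held in the membrane by a glycolipid anchor and bind EphA receptors, gave overlapping groups in all 5 cases. Efna3 was the most abundant at 8.28, 7.59 and 6.43 FPKM in control and 7.31, 7.59 and 7.70 FPKM in EFV-treated mice (log2 fold change 0.00, unadjusted p = 0.976 in edgeR). Efna5, one of the ligands that map the retina onto the midbrain, followed at 3.20, 3.03 and 3.09 against 3.59, 3.08 and 3.26 FPKM (log2 fold change 0.08). The remaining log2 fold changes ranged down to -0.45 in Efna4, which had 7 to 20 counts per library.

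The 7 secreted class 3 semaphorins, which repel axons through neuropilins and plexins, held both of the other genes with an unadjusted p under 0.05. Sema3f, a ligand of neuropilin 2 and the most abundant guidance gene, was at 58.6, 59.0 and 61.0 FPKM in control and 57.2, 65.7 and 61.2 FPKM in EFV-treated mice. The groups overlapped, and the interval of its log2 fold change was -0.12 to 0.17.

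Sema3e (Entrez 20349, chr5:14025276-14256689 in GRCm38), which binds Plxnd1 directly and patterns retinal vessels, was at 3.85, 3.54 and 3.61 FPKM in control and 3.26, 3.49 and 2.89 FPKM in EFV-treated mice. All EFV pools lay below the control pools, replicate 2 by a narrow margin. The log2 fold change was -0.21 ± 0.08 (SE, n = 3 and 3, 95% interval -0.39 to -0.02), with an adjusted p of 0.999 (edgeR with BH; unadjusted p = 0.0332). RSEM had divided some of its reads with other genes, since its expected counts were not whole. Without EFV replicate 2 the log2 fold change was -0.28 (unadjusted p = 0.00887 in edgeR), and without control replicate 2 -0.225 (unadjusted p = 0.0462). Without EFV replicate 3 it was -0.13 (unadjusted p = 0.109 in edgeR). The edgeR p of Sema3e was also above 0.05 without control replicate 1 (0.0987), control replicate 3 (0.0511) or EFV replicate 1 (0.0574), with log2 fold changes of -0.18, -0.22 and -0.21, and in limma (0.0886 and 0.0853 with pseudocounts of 0.1 and 1). The EFV pools with the lower Sema3e had more myelin RNA: the sum of 4 oligodendrocyte markers was 14, 11.1 and 17.2 FPKM in EFV replicates 1 to 3 and 10.7, 11.3 and 10.4 FPKM in control, with Mbp at 10.9, 8.77 and 13.7 against 8.13, 8.58 and 7.98 FPKM, and Mog at 0 in control replicate 2. Mbp was higher at the unadjusted limit (log2 fold change 0.20, unadjusted p = 0.041 in edgeR). The 3 astrocyte markers summed to 12.5, 8.21 and 11.9 FPKM in EFV replicates 1 to 3 and 9.51, 7.53 and 9.34 FPKM in control. None of these 3 was called, with Gfap at a log2 fold change of 0.396 (unadjusted p = 0.087 in edgeR). The part of these differences in the Sema3e values was not tested.

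Sema3c (Entrez 20348, chr5:17574816-17730268 in GRCm38), which signals through both neuropilins, was at 0.83, 0.50 and 0.69 FPKM in control and at 0.96, 0.91 and 0.93 FPKM in EFV-treated mice. The EFV pools lay close together above the control pools, which were spread more widely, with 100, 58 and 83 counts against 115, 109 and 110. The log2 fold change was 0.45 ± 0.19 (SE, n = 3 and 3, 95% interval 0.02 to 0.87), and the adjusted p 0.999 (edgeR with BH; unadjusted p = 0.0412). The lowest value was that of control replicate 2, the pool with the lowest RPE markers, and without it the log2 fold change was 0.28 (unadjusted p = 0.133 in edgeR). The 7 RPE markers summed to 46.8, 22.6 and 43.8 FPKM in control and 42.8, 52.2 and 53.9 in EFV-treated mice. Of these markers, Rpe65 and Lrat were higher in EFV-treated mice at the unadjusted limit (log2 fold changes 0.58 and 0.65, unadjusted p = 0.0437 and 0.0391 in edgeR). Of 5 fibroblast and matrix markers (sums of 2.77, 2.46 and 3.11 against 3.83, 3.06 and 3.28 FPKM, Pdgfra the most abundant, Lum at 0 in control replicate 2), Col1a2 was also higher (log2 fold change 0.50, unadjusted p = 0.0312 in edgeR). Rpe65 and Col1a2, like Sema3c, had all EFV pools above the control pools, and the part of RPE or connective tissue in the Sema3c values was not tested. Leaving out control replicate 3 or any EFV pool also took the unadjusted edgeR p of Sema3c above 0.05, to between 0.0650 and 0.0875. The log2 fold change stayed at 0.43 to 0.47 in these fits. Without control replicate 1 it was 0.615 (unadjusted p = 0.0134 in edgeR).

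Sema3a, the classic ligand of neuropilin 1, was at 1.59, 1.49 and 1.56 FPKM in control and 1.37, 1.44 and 1.43 FPKM in EFV-treated mice. The groups did not overlap, but the difference was within the error of the model (log2 fold change -0.13 ± 0.09 SE, unadjusted p = 0.162 in edgeR). Sema3b, Sema3d and Sema3g overlapped, with log2 fold changes of 0.22, -0.15 and 0.21. In all, 4 guidance genes (Efnb2, Efnb3, Sema3c and the receptor Plxna4) had all EFV pools above all control pools, as had 3.95% of all genes, and 2 (Sema3a and Sema3e) had them below, as had 4.18%.

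**Figure D3:**
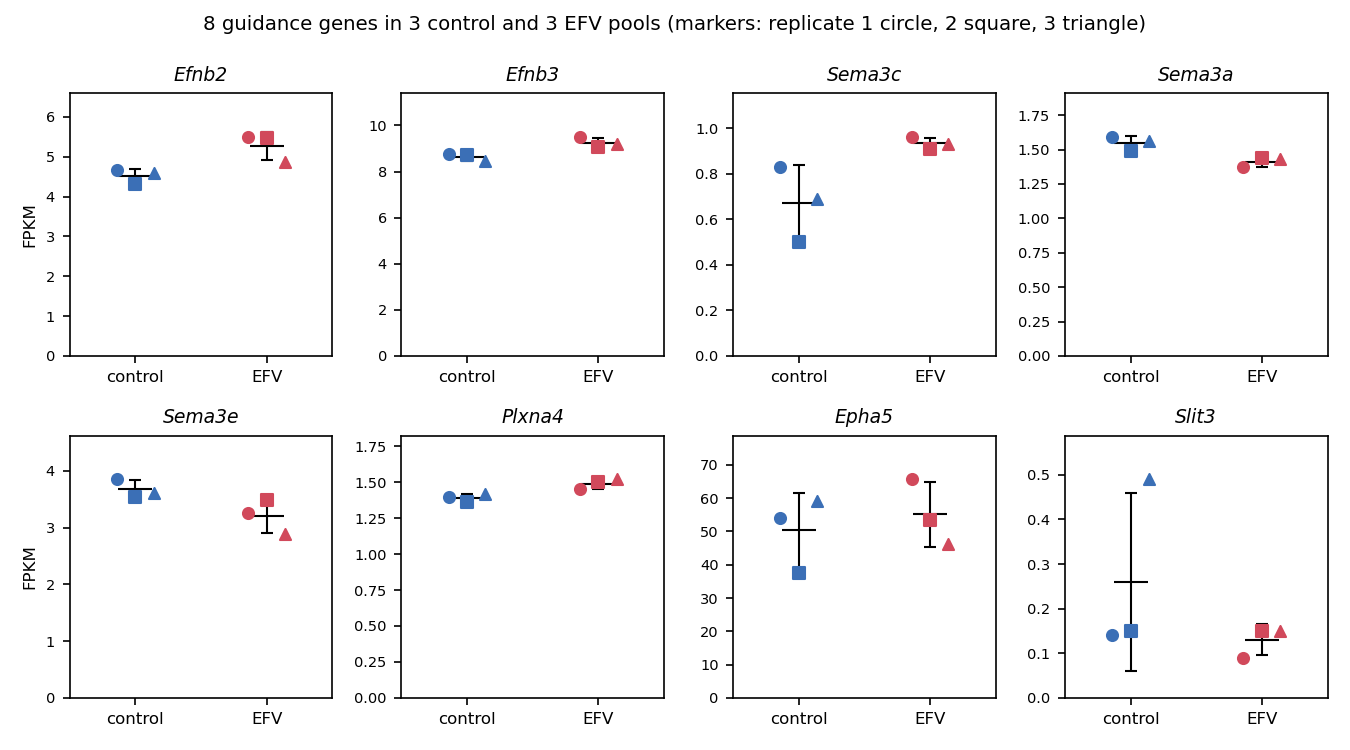
FPKM of the 6 guidance genes whose groups did not overlap, and of Epha5 and Slit3, in each pool (points), with the mean and SD of each group in black; every axis starts at 0. Sema3c shows the widest separation relative to its level among the first 6 panels, the pools of Epha5 are spread widely in both groups, and a single control pool sets the spread of Slit3.

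The start regions of the 3 genes with an unadjusted p under 0.05 are shown because only these guidance genes passed that limit. Each window runs from 250 bases before to 50 after the RefSeq start, on the strand of the gene, in GRCm38.p6. Capitals mark 4 motifs on either strand: the letters TATAAA of the TATA box, the letters CCAAT, the GC box with the letters GGGCGG, and the core bound by the photoreceptor factor CRX with the letters TAATCC. Sema3c lies at chr5:17574566-17574865 (+), Sema3e at chr5:14025026-14025325 (+) and Efnb2 at chr8:8661193-8661492 (-).
Sema3c: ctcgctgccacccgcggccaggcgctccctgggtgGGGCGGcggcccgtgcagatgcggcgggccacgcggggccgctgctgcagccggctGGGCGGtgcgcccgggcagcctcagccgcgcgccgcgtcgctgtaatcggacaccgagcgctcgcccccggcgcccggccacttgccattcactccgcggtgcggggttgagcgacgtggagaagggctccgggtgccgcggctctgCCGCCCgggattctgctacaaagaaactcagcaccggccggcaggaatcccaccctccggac
Sema3e: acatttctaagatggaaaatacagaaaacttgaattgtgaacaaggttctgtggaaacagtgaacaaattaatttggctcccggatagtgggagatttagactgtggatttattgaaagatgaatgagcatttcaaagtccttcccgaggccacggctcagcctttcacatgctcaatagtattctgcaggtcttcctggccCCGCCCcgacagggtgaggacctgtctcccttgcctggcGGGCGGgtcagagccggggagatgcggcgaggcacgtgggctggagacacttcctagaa
Efnb2: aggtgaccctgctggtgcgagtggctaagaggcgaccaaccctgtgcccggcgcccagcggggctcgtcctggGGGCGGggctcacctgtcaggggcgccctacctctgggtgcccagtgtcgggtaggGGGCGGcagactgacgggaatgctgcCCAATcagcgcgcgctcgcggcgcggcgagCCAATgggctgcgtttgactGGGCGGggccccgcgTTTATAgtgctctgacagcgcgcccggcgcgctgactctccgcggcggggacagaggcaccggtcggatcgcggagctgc

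The windows differ in make-up. Sema3c has 75.7% G and C and 42 CpG, Efnb2 72.3% and 35, and Sema3e 50.7% and 11. Efnb2 has 6 matches (3 GC boxes, 2 CCAAT and 1 TATA box), Sema3c has 3 GC boxes and Sema3e has 2. A window was found for 61 of the 71 guidance genes. Their median was 64.7% G and C and 22 CpG, against 60.7% and 20 in the 11442 tested genes that have a window. GGGCGG was in 72.1% of the guidance windows and 63.0% of those of tested genes (35.9% of all 27025), CCAAT in 27.9% and 38.7% (37.9%), TATAAA in 3.28% and 7.32% (14.2%) and TAATCC in 3.28% and 5.70% (7.16%). TATAAA was found in Efnb2 and Slit2, and TAATCC in Robo3 and Robo4. These are matches of letters, and no binding was measured.

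Several members are neighbours in the genome. Sema3d, Sema3a and Sema3e lie on chromosome 5 with gaps of 536 and 422 kb, and Sema3c lies farther along, more than 1 Mb beyond Sema3e. Their log2 fold changes were -0.15, -0.13, -0.21 and 0.45, of which only those of Sema3e and Sema3c had an unadjusted p under 0.05 in edgeR. Robo4 and Robo3 are 2.02 kb apart on chromosome 9 and were both under 1 FPKM, whereas Sema3b and Sema3f, 72.3 kb apart on the same chromosome, had mean levels of 2.01 and 60.5 FPKM. Efna1, Efna3 and Efna4 lie within chr3:89271730-89338028 at mean levels of 1.94, 7.48 and 0.367 FPKM.

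The 13 membrane-bound semaphorins were all tested and all overlapped between the groups. Their median log2 fold change was 0.04, with 9 above 0 and 4 below (10 and 3 with total-count scaling). With a library left out this median ranged from 0.005 (without EFV replicate 1) to 0.07 (without EFV replicate 2). Sema7a, which is held by a glycolipid anchor and binds Plxnc1 and integrins, was the most abundant at 21.8, 24.7 and 24.0 FPKM in control and 22.6, 23.9 and 20.3 FPKM in EFV-treated mice (log2 fold change -0.10, 95% interval -0.26 to 0.07). Sema4g was at 17.2, 15.9 and 15.8 against 16.3, 16.4 and 19.6 FPKM, the last value being that of EFV replicate 3. Its log2 fold change was 0.09, and 0.01 without that pool. Sema5a and Sema6a, which confine neurites to their layers in the inner retina, had intervals of -0.10 to 0.13 and -0.14 to 0.15 on the log2 scale. Both intervals include 0.

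Slits and netrins showed a high and a low member side by side. Slit2, which keeps ganglion cell axons on their path to the optic disc, was at 14.6, 13.8 and 13.6 FPKM in control and 14.9, 13.6 and 14.1 FPKM in EFV-treated mice, with a log2 fold change of 0.00 (95% interval -0.11 to 0.11). Slit1 was at 3.16 to 3.82 FPKM, also with overlap. Slit3 was at 0.14, 0.15 and 0.49 FPKM in control and at 0.09, 0.15 and 0.15 FPKM in EFV-treated mice. Its high value was that of control replicate 3, the pool with the most lens RNA, with 59 counts against 11 to 18 in the other 5. The log2 fold change of Slit3 was -1.02 ± 0.51 (SE; unadjusted p = 0.0770 in edgeR), and -0.19 without that pool (unadjusted p = 0.612 in edgeR). Without control replicate 1 or 2, Slit3 was called (-1.32 and -1.28, unadjusted p = 0.0255 and 0.0397 in edgeR).

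Ntn1, the ligand of Dcc that leads ganglion cell axons out of the eye during development, was near the limit of detection at 0.11, 0.14 and 0.17 FPKM in control and 0.16, 0.09 and 0.15 FPKM in EFV-treated mice. With 13 to 24 counts per library, its interval (-0.79 to 0.68 on the log2 scale) does not exclude a change of 1.5-fold in either direction. With a library left out its log2 fold change ranged from -0.22 to 0.15. Ntn4, a netrin of basement membranes, was the most abundant secreted netrin, at 5.08, 5.69 and 5.54 against 4.99, 5.69 and 4.92 FPKM, and Ntn3 was at 0.76 to 0.96 FPKM. The netrin-G genes, whose anchored products bind Lrrc4c and Lrrc4 and not Dcc, were far higher. Ntng2 was at 50.9, 54.9 and 53.8 FPKM in control and 48.3, 53.2 and 55.3 FPKM in EFV-treated mice, and Ntng1 at 11.63 to 12.96 FPKM in all 6 libraries. Neither differed beyond the spread between pools (unadjusted p = 0.869 and 0.187 in edgeR).

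Among the receptors, none had an unadjusted p of 0.05 or less. Epha5, a receptor graded across the ganglion cells, was the most abundant and the most variable of those above 10 FPKM. It was at 54.0, 37.5 and 59.3 FPKM in control and 65.7, 53.4 and 46.3 FPKM in EFV-treated mice. The pools of 1 group differed more than the groups did (mean ± SD 50.3 ± 11.4 and 55.1 ± 9.83, n = 3 each; unadjusted p = 0.431 in edgeR). The log2 fold change of Epha5 was 0.11, and with a library left out it ranged from -0.02 (without control replicate 2) to 0.21 (without EFV replicate 3). The SD between pools was 0.231 on the log2 scale, against a median of 0.0880 and a next highest value of 0.120 in the 14 guidance genes with a mean of at least 10 FPKM. The files give Epha5 5 transcripts, 4 of them new models of the sequencing provider, and a mean transcript length of 2527 to 2836 bases, and its expected counts were not whole, so its level per length rests on these models. Epha8 was at 11.15 to 13.01 FPKM, and the other 7 EphA receptors were lower. All 9 overlapped between the groups.

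EphB receptors bind ephrin-B ligands and were each under 7 FPKM. Ephb1, which marks the ganglion cells whose axons stay on the same side of the brain, was at 6.95, 6.52 and 6.41 FPKM in control and 6.35, 6.76 and 6.38 FPKM in EFV-treated mice. Ephb2 was at 3.08, 3.05 and 3.47 against 2.98, 3.06 and 3.15 FPKM (log2 fold change -0.08, 95% interval -0.22 to 0.07), and Ephb4, the venous partner of Efnb2, at 0.81, 0.99 and 0.90 against 0.71, 1.04 and 0.93 FPKM. Ephb6, which lacks kinase activity, was at 3.90 to 4.43 FPKM. The 5 genes overlapped between the groups, and the median log2 fold change was -0.04.

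Of 9 plexins, the receptors of semaphorins, 8 were tested. Plxnb1 (14.8 to 16.6 FPKM) and Plxnb2 (10.8 to 12.7), receptors of class 4 semaphorins, were the most abundant and overlapped. The log2 fold change of Plxnb2 was 0.01, and 0.08 without control replicate 3 (unadjusted p = 0.224 in edgeR). Plxna4, a receptor of Sema6a, was at 1.40, 1.36 and 1.42 FPKM in control and 1.45, 1.5 and 1.52 FPKM in EFV-treated mice. These groups did not overlap, at a log2 fold change of 0.07 ± 0.06 (SE) that was within the error of the model (unadjusted p = 0.264 in edgeR). Plxna2 (10.02 to 11.34 FPKM), Plxna1 (5.85 to 6.63), Plxna3 (3.29 to 3.73) and Plxnd1 (1.72 to 2.17) overlapped between the groups. The neuropilins, co-receptors of class 3 semaphorins, also overlapped: Nrp2 was at 3.29 to 3.71 FPKM and Nrp1 at 1.7 to 1.88 FPKM, with log2 fold changes of -0.02 and 0.01.

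Robo2, the main Slit receptor of ganglion cells, was at 10.2, 10.5 and 9.95 FPKM in control and 9.82, 10.4 and 10.1 FPKM in EFV-treated mice. Robo1 was at 1.98, 2.03 and 2.01 against 1.81, 2.04 and 1.68 FPKM (log2 fold change -0.14, unadjusted p = 0.160 in edgeR), and Robo4, the Robo of endothelium, at 0.64 to 0.81 FPKM. Robo1 moved with the EFV pools used, to -0.23 without replicate 2 (unadjusted p = 0.0289 in edgeR) and -0.07 without replicate 3 (unadjusted p = 0.447 in edgeR). Unc5 receptors, which turn netrin signals into repulsion, were led by Unc5a (18.0, 18.3 and 20.1 against 17.2, 18.3 and 19.2 FPKM). Unc5c was at 2.53 to 3.00 FPKM and Unc5b, the vascular member, at 1.56 to 2.11 FPKM. Dcc, the receptor of attraction to netrin, was at 2.32, 2.78 and 2.58 FPKM in control and 2.57, 2.34 and 2.35 FPKM in EFV-treated mice. All 9 of these receptors overlapped between the groups.

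**Figure D4:**
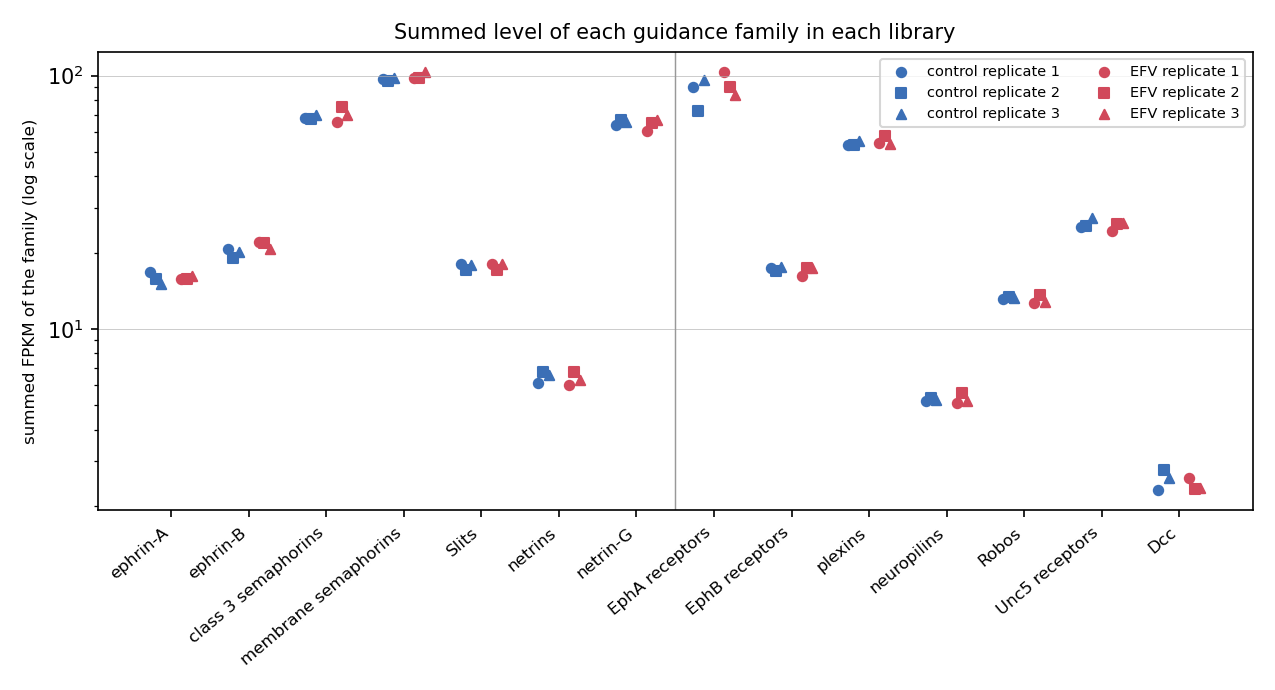
Summed FPKM (log axis) of the members of each guidance family in each library, ligands to the left of the line and receptors to the right, with control in blue and EFV in red. The EphA receptors, whose sum is mostly Epha5, range from 72.4 to 103 FPKM. The ephrin-B sums of all EFV pools lie above those of control, but only just (lowest 20.7 against highest 20.6 FPKM). No test was made of family sums.

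Ligands and receptors known to pair were set beside each other as ratios of FPKM within each library, for 12 pairs. Receptor RNA exceeded that of the ligand for Ntn1, with ratios to Dcc of 0.0385 to 0.0659, whereas Slit2 exceeded Robo2 at 1.31 to 1.52 and Robo4 at 16.7 to 22.8. Sema3a to Nrp1 was 0.874, 0.861 and 0.872 in control and 0.806, 0.770 and 0.761 in EFV-treated mice. These ratios did not overlap, and the smallest two-sided p that an exact permutation test of 3 against 3 pools can give is 0.10. The ratios of the other 11 pairs overlapped, including Sema3e to Plxnd1 (2.19, 1.63 and 1.76 against 1.61, 1.61 and 1.68) and Efnb2 to Ephb4 (5.75, 4.35 and 5.09 against 7.73, 5.25 and 5.23).

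Surface partners of guidance molecules and genes that carry their signals into the cell did not stand out either. Of 84 partner genes in 6 groups, 84 were tested, 0 were higher and 2 were lower at an unadjusted p of 0.05 in edgeR, and 0 were called at an adjusted p of 0.05 (edgeR with BH). Both lower genes were among the 20 co-receptors and other surface partners. Over all genes tested, 1.49% were higher and 1.55% lower at the unadjusted limit. DESeq2 gave 1 partner gene at this limit, Dscam, which was lower, and limma gave 1, Arhgef12, which was higher and not among the edgeR calls. With total-count scaling the edgeR calls were Arhgef12 (higher) and Dscam (lower), and Cntn2 was lost. The median log2 fold change of the 84 was -0.01. Dscam, an adhesion molecule and netrin receptor that spaces amacrine and ganglion cells, was at 9.37, 8.38 and 8.42 FPKM in control and 8.25, 7.68 and 8.69 FPKM in EFV-treated mice. Its FPKM overlapped, while its scaled counts did not, and the log2 fold change was -0.15 ± 0.05 (SE; unadjusted p = 0.00904, adjusted p = 0.999, edgeR with BH). On log2 FPKM in limma with a pseudocount of 0.1 the log2 fold change of Dscam was smaller, at -0.087, with an unadjusted p of 0.269. Cntn2, an adhesion molecule of axons, was at 1.65, 1.62 and 1.75 against 1.37, 1.61 and 1.45 FPKM. Its log2 fold change was -0.19 (unadjusted p = 0.0484 in edgeR), and -0.179 with total-count scaling (unadjusted p = 0.0619 in edgeR). Without EFV replicate 1 it was -0.14 (unadjusted p = 0.163 in edgeR), and without EFV replicate 2 -0.269 (unadjusted p = 0.0141 in edgeR). The other leave-one-out fits lay between these. The groups did not overlap in 6 of the 84 genes, 2 above and 4 below, against 3.95% and 4.18% of all genes. Those above were Arhgef12, an exchange factor bound by class B plexins (18.2, 18.0 and 18.1 FPKM in control and 19.1, 20.2 and 19.2 in EFV-treated mice, log2 fold change 0.09, unadjusted p = 0.0775 in edgeR), and Ptk2, a kinase that binds Dcc (log2 fold change 0.03, unadjusted p = 0.487 in edgeR). The FPKM of Ptk2 overlapped (11.1, 10.72 and 10.51 against 11.14, 11.04 and 11.25), while its scaled counts did not. Those below were Dscam, Cntn2, Pitpna and Adam10, a protease that cleaves ephrins, which was at 12.3, 12.1 and 11.7 against 11.4, 11.4 and 11.3 FPKM (log2 fold change -0.09, unadjusted p = 0.0597 in edgeR). The most abundant gene of each group overlapped except Pitpna, a lipid transfer protein that binds Dcc, which was at 54.2, 55.7 and 53.4 against 51.5, 52.3 and 53.7 FPKM, where only its scaled counts did not overlap. The others were Dscaml1 (mean 33.7 FPKM), Chn1 (48.8), Dpysl3 (54.8), Usp33 (68.1) and Cfl1 (295), which encode a surface protein, a Rac regulator of Eph signals, a collapsin response mediator, an enzyme that binds Robo1 and the actin-severing protein cofilin.

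The files also give a mean transcript length per library, which moves when the use of long and short transcripts changes. Of the 69 guidance genes tested, 40 have more than 1 transcript, and the length differed by more than 5% between libraries for 7. Among all tested genes with more than 1 transcript this was so for 21.3% of 8190. Sema6d, a transmembrane semaphorin with 10 transcripts, was at 5855, 5857 and 5923 bases in control and 5760, 5805 and 5757 bases in EFV-treated mice, and Sema6c at 3914, 3854 and 3866 against 3852, 3799 and 3799 bases. The lengths of both genes were lower in all EFV pools. Groups that do not overlap in length were found in 3 of the 40 guidance genes, and in 8.91% of all genes with more than 1 transcript, and no test was made of these lengths. The remaining gene of the 3, Unc5c, differed little, at 9339, 9343 and 9337 bases in control and 9315, 9311 and 9319 in EFV-treated mice.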

How the data were processed

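The measurements were 6 RNA-seq libraries from pooled retinas, 3 per treatment. The authors estimated expected counts per gene with RSEM 1.2.12 from reads aligned to mm10 with Bowtie2 2.2.5, and HISAT2 2.0.4 is also named in the submitters' processing notes. The deposited FPKM values are these counts divided by transcript length and library total, rounded, with a minimum of 0.01. The strandedness is not given in the sources used here, so reads of overlapping antisense genes cannot be told apart. Of the 71 guidance genes, 14 share exon positions with another GENCODE gene, 11 on the opposite strand (among them Unc5a, Plxna4, Plxnb1, Plxna1, Ephb1, Efna3 and Unc5c) and 4 on the same strand (among them Ntng2 and Nrp1). Per the labels poly-A RNA was selected, while the methods name random primers.

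A gene absent from a library was taken as 0. Rounded expected counts went into edgeR 4.0.16 under R 4.3.3 (quasi-likelihood, two-sided, TMM scaling, group as the only term). A gene was tested when 3 or more libraries had 10 counts or more, and BH adjustment ran over all 15537 such genes. For single genes, groups said to overlap or not were compared in TMM-scaled counts, unless FPKM is named. Sums over genes and ligand-receptor ratios were compared in FPKM, and transcript lengths in bases. Levels between genes were compared in FPKM. Chi-square per degree of freedom between any 2 libraries was 5.47 or higher, above sampling noise. At this depth counting error weighs most on genes near 10 counts; the common coefficient of variation between pools was 0.0983. Alternatives were RLE or total-count scaling, no filter or at least 50 counts, DESeq2 1.42.0, limma 3.58.1 on log2 FPKM with pseudocounts of 0.1 and 1, a Poisson fit, a block for the replicate number, and leave-one-out fits. Positions, promoter windows and overlaps come from RefSeq GRCm38.p6 and GENCODE M21, and 71 of 71 guidance genes were matched by Entrez identifier.

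Named genes were the most abundant pair of each family and members with an unadjusted p of 0.05 or less or without overlap. Efnb2, Sema3e, Ephb2, the genes of 12 ligand-receptor pairs, members not tested, and partner genes by the same limits were also named. The study lists Efnb2 (higher), Sema3e (lower) and Dscam (lower) among its differentially expressed RNAs, by a Poisson-based threshold. It lists Ephb2 among proteins that differ, while only Ephb2 RNA was followed here. Slit3, Epha1, Efna4, the other class 3 semaphorins, genome neighbours and the lengths of Sema6c, Sema6d and Unc5c were named after their values were seen. The members and lists were chosen with earlier results of these data known.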

Additional observations from a re-analysis of the deposited data

How the results depend on the processing

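The 6 genes whose groups did not overlap were the same under TMM, RLE and total-count scaling, in FPKM and with at least 50 counts; without a filter Plxnb3 joined them and was also called at an unadjusted p of 0.05, which made 4 guidance genes at that limit. Genes at an adjusted p of 0.05 (BH) numbered 0 in edgeR, 11 in DESeq2 and 2043 in the Poisson model, and 0 to 1 when a library was left out. At an unadjusted p of 0.05 there were 472 in edgeR, 270 in DESeq2 and 3901 in the Poisson model (389 to 576 with a library left out), and total counts turned the split of 231 higher and 241 lower into 290 and 162. The Poisson model gave 8 guidance genes at an adjusted p of 0.05 and 19 at an unadjusted one, since it leaves out the spread between pools. DESeq2 gave 1 guidance gene at an unadjusted p of 0.05, and leaving out a library gave 0 to 3. Partner genes at that limit numbered 2 in the main analysis, 25 in the Poisson model, and 1 with at least 50 counts, in DESeq2, in limma with either pseudocount and with the replicate block, and 1 to 4 with a library left out. With a library left out, 5 to 10 guidance genes had all EFV pools above and 2 to 12 below the control pools. Fewer libraries overlap less often, and 7.50% to 9.46% of all genes were above and 8.38% to 9.56% below. Guidance shares ranged more widely, from 7.25% to 14.7% above and from 2.9% to 17.6% below. Each guidance share rests on only 68 or 69 genes, against at least 15381 in all, so single genes move it far more. The highest shares were those without control replicate 3 (above) and without EFV replicate 2 (below), and the lowest share below was that without EFV replicate 1. The cause of this wider range and of the other shifts was not tested.

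The replicate numbers are not known to pair the pools. The correlations of deviations were 0.125, 0.0832 and 0.0992 for equal numbers, and each library correlated best with its own number, a hint from the data only. With the replicate block, 0 genes had an adjusted p of 0.05, 520 an unadjusted one (3 guidance genes), and the median log2 fold change of guidance genes was 0.00. Calls were also gained when a library was left out: Slit3 without control replicate 1 or 2, Sema3b and Sema4d without control replicate 3, and Robo1 and Sema4f without EFV replicate 2. Pools of 5 to 6 mice and 3 libraries a group limit precision, and the intervals of 9 of the 69 guidance genes tested reached beyond 1.5-fold.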
